A study of Mus musculus with 8 samples.

Results

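Protein kinase A (PKA) and EPAC are the main intracellular receptors of cAMP, and 10 of their genes were followed here: the catalytic subunits Prkaca and Prkacb, the regulatory subunits Prkar1a, Prkar1b, Prkar2a and Prkar2b, the protein kinase inhibitors Pkia and Pkib, and the cAMP-activated exchange factors Rapgef3 (EPAC1) and Rapgef4 (EPAC2). They were chosen by name, and all 10 were found among the 17362 genes of the deposited table. The values came from single nucleus RNA-seq of cultured mouse pancreatic islets, about 100 islets per sample, from wild type (WT) mice and from mice carrying the S983A change of the Mediator subunit Med14, a serine replaced by alanine, in the whole body (mutant). For each genotype, some islets had no treatment (CON), and others were treated with the GLP-1 receptor agonist Exendin-4 (Ex-4) at 10 nM for 16 h, or treated with forskolin (FSK), a direct activator of adenylyl cyclase, for 16 h at a dose not given in the sources used here. The 6 conditions were therefore WT CON, WT FSK, WT Ex-4, mutant CON, mutant FSK and mutant Ex-4, and the table gave 1 pooled value per condition and annotated cell type (9 types), which makes 54 columns. The mutant mice were of the C57BL/6J strain, and the age and number of the mice were not given in the sources used here.

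PKA is a complex of regulatory and catalytic subunits. When cAMP binds the regulatory subunits, the catalytic subunits are freed to phosphorylate their targets, among them the transcription factor CREB, which binds the cAMP response element (CRE). Pkia and Pkib block the free catalytic subunits and carry them out of the nucleus. EPAC proteins bind cAMP independently of PKA and switch on the small GTPase Rap, and in beta cells EPAC2 is known for a role in insulin granule release.

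CREB can act at promoters, and the paper ties cAMP-inducible expression to CREB bound at enhancers away from promoters. Only the promoter sequences of the members were searched here for CRE letters. Binding of CREB to these sequences, and any part of them in the levels below, was not tested. RefSeq (GRCm38.p6) gave 23 promoter windows of 300 bases for 9 of the 10 genes, and each was matched by sequence to GRCm39, the build of the study. The full element TGACGTCA, which reads the same on both strands, was present in 2 of these windows. Both belonged to Prkar1a, overlapped each other and held the same copy, at chr11:109541726-109541733. Over all 32851 RefSeq promoter windows of this length, 1.79% held the element. The shorter core TGACG, which is also part of the full element, was found on either strand in 8 of the 23 windows and in 20.8% of all windows. The Prkar1a window in which the element lies upstream of the start site is shown because Prkar1a had the largest ratio of the members after FSK in beta cells. It spans chr11:109541525-109541824 on the plus strand, the start site is base 109541775, and the first base of the element lies 49 bases before it. The Rapgef4 window, at chr2:71811309-71811608 on the plus strand, is shown beside it as the promoter of the other cAMP receptor gene that the results turn on, and it held neither motif. Capitals mark the full element and the core.

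Prkar1a promoter: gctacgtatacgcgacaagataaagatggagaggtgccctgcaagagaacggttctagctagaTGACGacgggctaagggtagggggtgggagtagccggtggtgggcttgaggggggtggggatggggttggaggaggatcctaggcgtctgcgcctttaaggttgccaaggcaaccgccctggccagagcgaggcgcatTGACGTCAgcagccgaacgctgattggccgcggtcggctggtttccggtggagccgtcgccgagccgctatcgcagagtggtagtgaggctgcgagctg
Rapgef4 promoter: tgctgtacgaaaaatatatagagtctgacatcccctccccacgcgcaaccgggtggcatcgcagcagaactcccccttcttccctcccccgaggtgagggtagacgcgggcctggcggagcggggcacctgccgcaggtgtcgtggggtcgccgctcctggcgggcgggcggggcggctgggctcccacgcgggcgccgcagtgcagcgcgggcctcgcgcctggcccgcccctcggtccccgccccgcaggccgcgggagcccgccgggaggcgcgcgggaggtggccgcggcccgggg

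In GRCm39 (GENCODE M39), Prkar1a spans chr11:109513434-109560633 on the plus strand (47.2 kb) and Rapgef4 spans chr2:71811328-72089838 on the plus strand (279 kb). Among the members, Rapgef4 is the longest gene and Prkaca the shortest (23.5 kb). Prkar1a overlaps Fam20a on the opposite strand and Gm11685, Prkar1b overlaps Dnaaf5, and Rapgef4 overlaps 3 antisense genes of the table. How reads were assigned to strands was not given in the sources used here, so reads of such pairs may not be told apart.

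Levels are given as counts per 10000 counts of a column (CP10K), with the exact Poisson 95% interval. The number of nuclei behind a column was not analysed here. Columns held 1915006 to 3094377 counts in beta cells, 269394 to 810127 in alpha cells, 362410 to 631433 in delta cells, and 1522 to 159305 in the other 6 cell types. There was 1 value per condition and cell type, so no test was run. The intervals cover counting error only and say nothing of the spread between islet preparations, and condition cannot be told apart from preparation or barcoding well. In pooled nuclei, a lower level cannot be told apart as fewer transcribing nuclei or less RNA per nucleus. The summed markers of a cell type were highest in its own columns in 42 of 54 cases, and the 12 exceptions were in macrophage, ductal and neuron columns. Markers of other cell types were also present: summed beta cell markers reached 12.2 to 34.0 CP10K in alpha columns, against 46.5 to 67.2 CP10K in beta columns, and the highest alpha value was that of WT CON. Med14 itself ran from 0.384 to 0.753 CP10K in beta cells, and since the mutation changes a single amino acid, this level does not check the genotype labels.

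The WT CON column stood apart from other columns that lacked FSK. Calls of higher or lower required a CP10K ratio of at least 1.5-fold, among genes with a mean of at least 50 counts over the 6 columns of the cell type. In beta cells, 9 members passed this filter and Rapgef3 did not. Between mutant Ex-4 and mutant CON, 1.54% of the 6555 genes kept were higher and 1.92% lower, whereas mutant CON against WT CON gave 18.2% and 26.9%. The paper reads the same data as a broad response of WT beta cells to Ex-4, with untreated mutant beta cells resembling WT cells given Ex-4. With a single pooled column per condition, such a response cannot be told apart from a difference of the WT CON preparation. Comparisons of the members that do not use the WT CON column are therefore given as well.

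**Figure D1:**
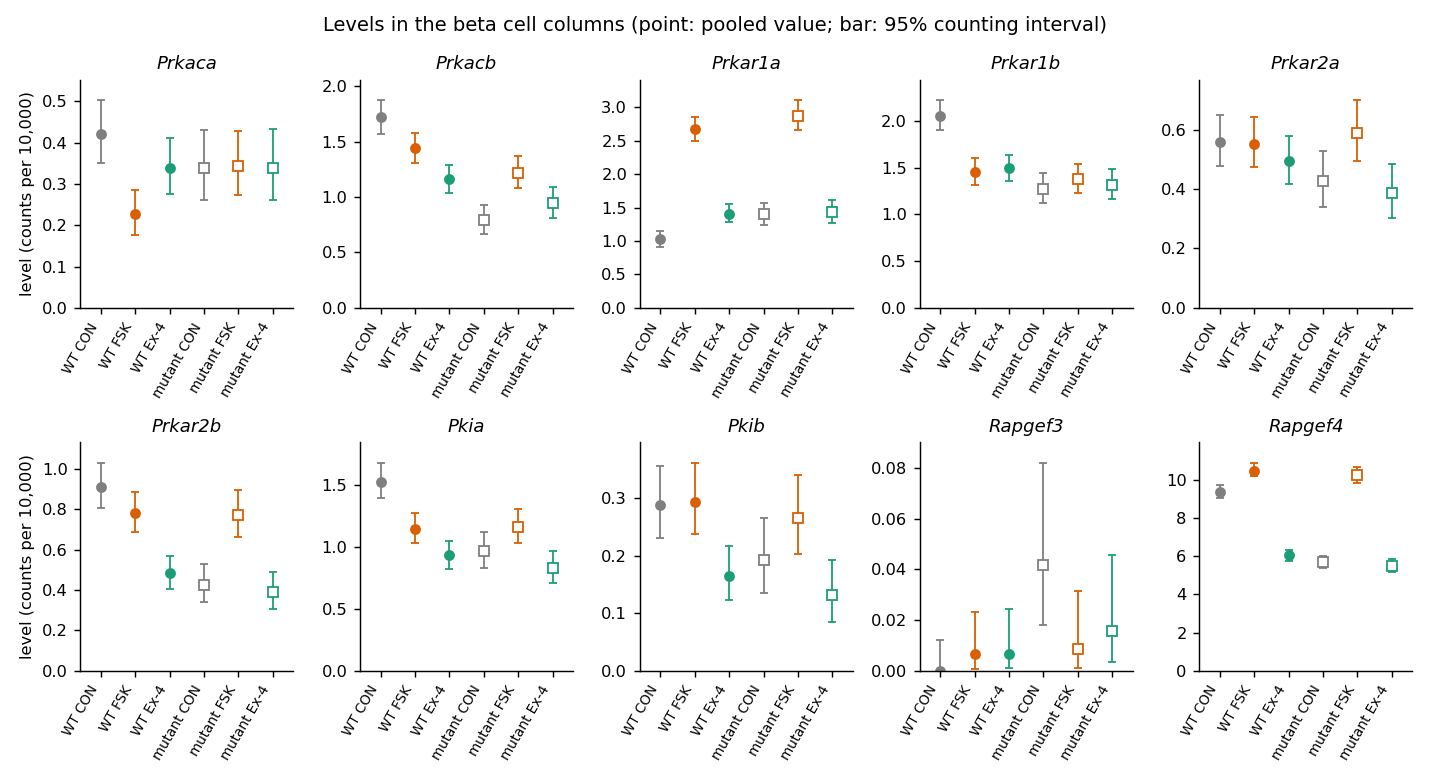
Level of each of the 10 genes (CP10K, vertical axis from 0) in the 6 beta cell columns. Circles are WT, open squares are mutant, grey is CON, orange is FSK, green is Ex-4, and bars are 95% counting intervals. Prkar1a was highest in both FSK columns (2.67 and 2.87 CP10K), and Rapgef4 was above 9 CP10K in WT CON and both FSK columns and near 6 CP10K or lower in the other 3.

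Prkar1a encodes the type I alpha regulatory subunit, which holds the catalytic subunits inactive in the absence of cAMP. In beta cells its level was 1.03 CP10K in WT CON, 2.67 in WT FSK, 1.41 in WT Ex-4, 1.4 in mutant CON, 2.87 in mutant FSK and 1.43 in mutant Ex-4. Both FSK columns lay above the other 4, and their intervals did not overlap those of any of the 4. The ratio of WT FSK to WT CON was 2.60 (95% counting interval 2.28 to 2.98), which ranked 116 of 6555 genes from the highest. The ratio of mutant FSK to mutant CON was 2.06 (1.78 to 2.38), with rank 812. Without the WT CON column, WT FSK against WT Ex-4 gave 1.89 (1.68 to 2.13), and mutant FSK against WT FSK gave 1.08 (0.971 to 1.19). With the trend on gene length removed, the log2 ratios were 1.55 in WT and 1.01 in the mutant. Prkar1a was also 1.38-fold (1.19 to 1.60) higher in WT Ex-4 than in WT CON, and 1.36-fold (1.15 to 1.61) higher in mutant CON than in WT CON, both below 1.5-fold. In the mutant, Ex-4 against CON gave 1.02 (0.862 to 1.22).

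As in beta cells, both FSK columns held the highest and WT CON the lowest Prkar1a level in delta cells, and this was not so in alpha cells. In delta cells Prkar1a was at 0.993 CP10K in WT CON, 3.04 in WT FSK, 1.55 in WT Ex-4, 1.5 in mutant CON, 2.31 in mutant FSK and 1.65 in mutant Ex-4. The interval of WT FSK stood clear of the 4 columns without FSK, whereas that of mutant FSK (1.95 to 2.72) met those of WT Ex-4 (1.20 to 1.97) and mutant Ex-4 (1.33 to 2.02). The FSK ratio in delta cells was 3.06 (2.10 to 4.56) in WT and 1.54 (1.17 to 2.04) in the mutant, and WT FSK against WT Ex-4 gave 1.96 (1.45 to 2.67). The mutant ratio fell under 1.5-fold when column totals left out mitochondrial and ribosomal RNA linked genes, and when the median log2 ratio was set to 0. In alpha cells the level was 0.954 CP10K in WT CON, 0.891 in WT FSK, 1.29 in WT Ex-4, 1.27 in mutant CON, 1.03 in mutant FSK and 0.958 in mutant Ex-4, and the intervals of all 6 overlapped. The alpha FSK ratio was 0.934 (0.538 to 1.59) in WT and 0.811 (0.598 to 1.1) in the mutant. The beta ratio divided by the alpha ratio was 2.79 (1.65 to 4.70) in WT and 2.54 (1.84 to 3.51) in the mutant, and delta divided by alpha was 3.28 (1.75 to 6.13) in WT and 1.90 (1.28 to 2.82) in the mutant, where these intervals too cover counting error only. In PP cells only 2 to 11 Prkar1a counts were present per column, and a change was not detectable at this depth.

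Of the genes of the table that overlap Prkar1a, Gm11685 was also highest in the FSK columns of beta cells. It was at 0.0764 CP10K in WT CON, 0.120 in WT FSK, 0.0436 in WT Ex-4, 0.0519 in mutant CON and 0.130 in mutant FSK, on 10 to 37 counts, with 0 counts in mutant Ex-4. The Gm11685 ratio of FSK to CON was 1.57 (0.906 to 2.76) in WT, which includes 1, and 2.51 (1.19 to 5.75) in the mutant. Fam20a, on the other strand, did not share this pattern. In beta cells its FSK ratio was 0.913 (0.832 to 1.00) in WT and 1.12 (0.967 to 1.31) in the mutant, whereas in alpha cells it was 2.39 (1.88 to 3.05) and 2.60 (2.13 to 3.17).

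**Figure D2:**
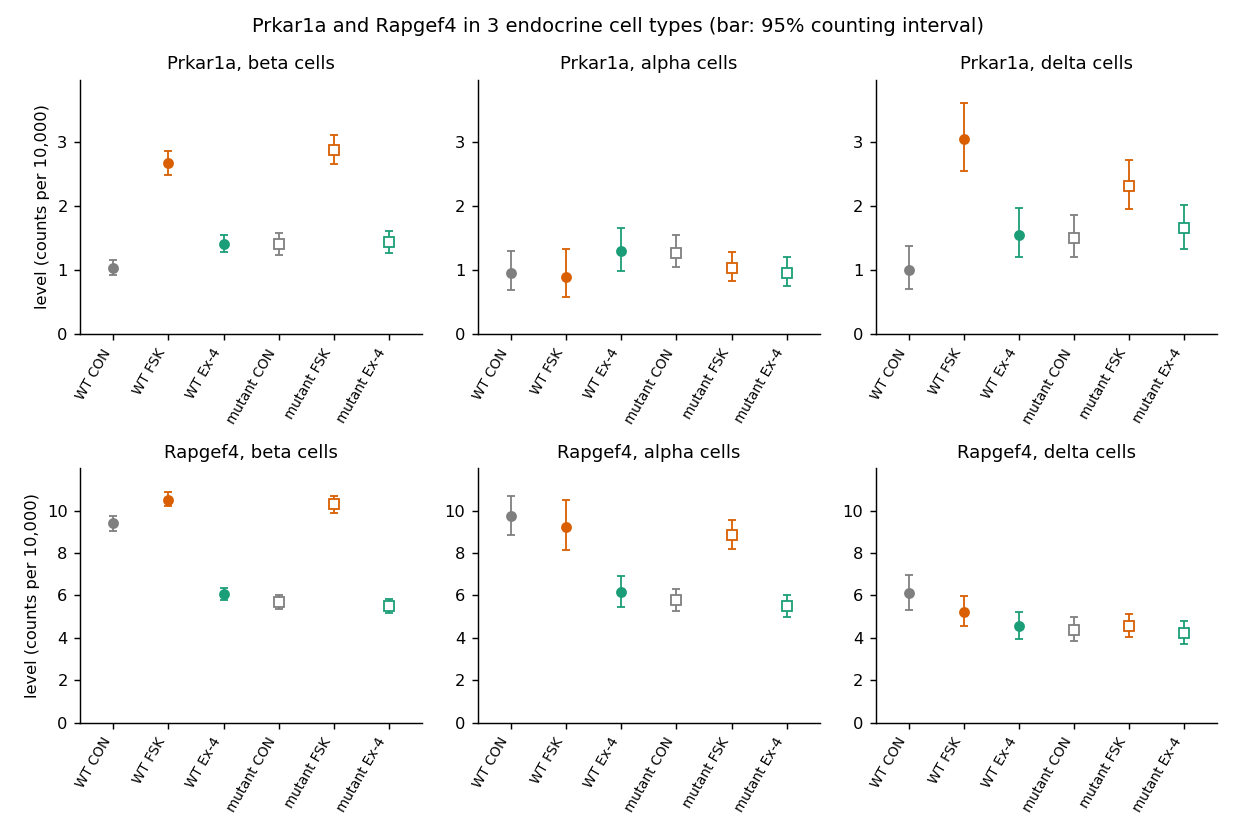
Levels (CP10K, vertical axis from 0, shared within a row) of Prkar1a and Rapgef4 in beta, alpha and delta cells for the 6 conditions, with 95% counting intervals. Symbols and colours are those of the plot of beta cell levels. Prkar1a was high in the FSK columns of beta and delta cells (2.31 to 3.04 CP10K) and between 0.891 and 1.29 CP10K in alpha cells, while Rapgef4 varied in parallel in beta and alpha cells and less in delta cells.

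The other regulatory subunits did not show this pattern in beta cells. Prkar1b, the type I beta subunit that is best known from neurons, was at 2.05 CP10K in WT CON, 1.45 in WT FSK, 1.5 in WT Ex-4, 1.27 in mutant CON, 1.38 in mutant FSK and 1.32 in mutant Ex-4 in beta cells. The interval of WT CON (1.90 to 2.22) lay above those of the other 5 columns, which ran from 1.27 to 1.5 CP10K. The ratio to WT CON was 0.708 (0.625 to 0.8) for WT FSK, 0.728 (0.643 to 0.824) for WT Ex-4 and 0.619 (0.532 to 0.719) for mutant CON. WT FSK against WT Ex-4 gave 0.972 (0.851 to 1.11), and the mutant FSK ratio was 1.08 (0.913 to 1.28).

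Prkar2a and Prkar2b encode the type II subunits, which anchoring proteins tether to membranes and cytoskeleton. Prkar2a stayed between 0.386 CP10K in mutant Ex-4 and 0.590 CP10K in mutant FSK, and no ratio among the comparisons with its own CON column reached 1.5-fold. Prkar2b was at 0.913 CP10K in WT CON, 0.782 in WT FSK, 0.483 in WT Ex-4, 0.426 in mutant CON, 0.773 in mutant FSK and 0.392 in mutant Ex-4. Thus WT CON and both FSK columns were high, and the other 3 were low with no overlap of intervals between the 2 sets. FSK against CON gave 0.857 (0.718 to 1.02) in WT and 1.81 (1.39 to 2.39) in the mutant. Mutant FSK against WT FSK gave 0.988 (0.810 to 1.20), and mutant CON against WT CON gave 0.467 (0.360 to 0.599). In WT, Ex-4 against CON gave 0.529 (0.429 to 0.650), whereas in the mutant it gave 0.920 (0.663 to 1.27). Both type II genes were below the filter in alpha cells, where mutant FSK against mutant CON gave 2.36 (1.49 to 3.82) for Prkar2a, on 64 and 28 counts, and 2.78 (1.31 to 6.44) for Prkar2b, on 27 and 10 counts. In WT alpha cells, CON and FSK held 0.453 and 0.557 CP10K of Prkar2a, and 0.262 and 0.297 of Prkar2b, with overlapping intervals on 8 to 19 counts. The mutant ratio divided by the WT ratio was 1.92 (0.853 to 4.31) for Prkar2a and 2.46 (0.767 to 7.88) for Prkar2b. Both intervals include 1.

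Within the counts of the 4 regulatory subunits, Prkar1a took a larger share under FSK in beta cells. Shares are of counts that are not corrected for gene length, so they are read between conditions and not between genes. Prkar1a made up 22.5% (exact binomial 95% interval 20.4 to 24.8) of regulatory counts in WT CON, 48.9% (46.5 to 51.3) in WT FSK, 36.4% (33.6 to 39.2) in WT Ex-4, 39.7% (36.0 to 43.5) in mutant CON, 51.2% (48.4 to 54) in mutant FSK and 40.6% (36.9 to 44.4) in mutant Ex-4. The Prkar1b share was smaller under FSK, at 26.6% against 45.1% for the WT and at 24.5% against 36.1% for the mutant. Shares of a column are tied to each other, so a smaller share need not be a lower level. In the mutant the Prkar1b level was 1.27 CP10K in CON and 1.38 in FSK. In delta cells the Prkar1a share for the WT was 27.1% (19.7 to 35.5) without treatment and 56.8% (50.1 to 63.3) with FSK. For the mutant it was 39% (32.5 to 45.8) and 46.8% (41.2 to 52.5). In alpha cells it was 31.0% (23.2 to 39.7) without treatment and 31.6% (21.4 to 43.3) with FSK for the WT, and it was lower in mutant FSK, at 30.6% (25.1 to 36.5), than in mutant CON, at 45.8% (39.1 to 52.5).

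**Figure D3:**
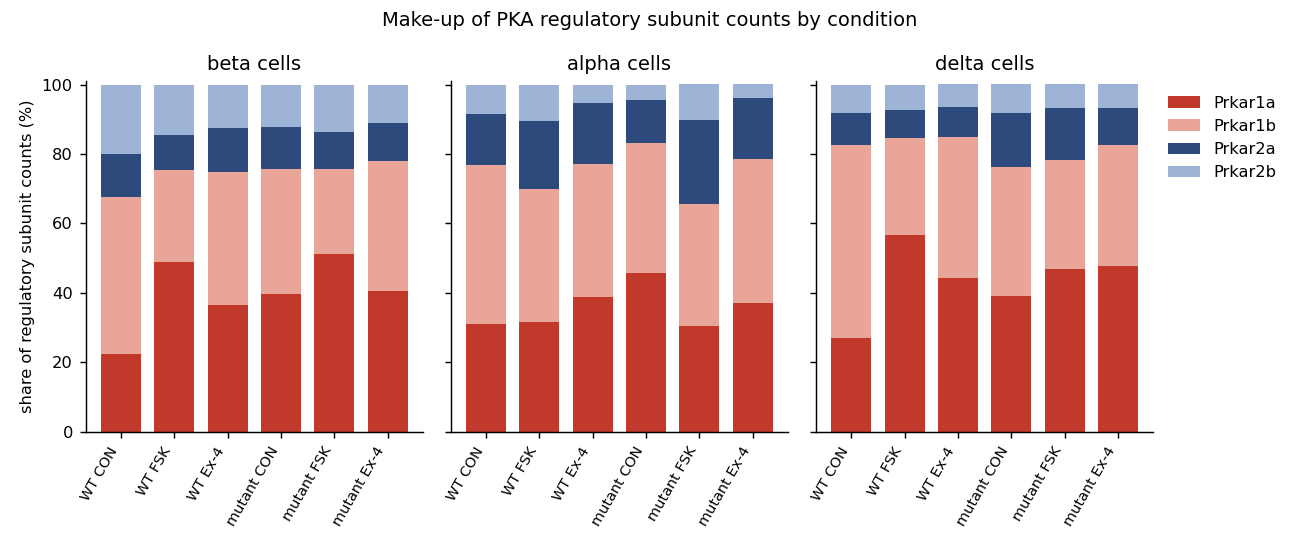
Stacked bars give the share (%) of each regulatory subunit gene in the summed counts of the 4 genes, for the 6 conditions in beta, alpha and delta cells. The Prkar1a part was 22.5% for WT CON and 48.9% for WT FSK in beta cells, 27.1% and 56.8% in delta cells, and 31.0% and 31.6% in alpha cells.

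The catalytic subunits differed in their patterns. Prkaca, the alpha subunit, had a level of 0.422 CP10K in WT CON and 0.226 in WT FSK, while the other 4 beta columns held 0.338 to 0.343. Only WT FSK lay apart from WT CON beyond the counting intervals. WT FSK against WT CON gave 0.537 (0.395 to 0.724), which was past 1.5-fold. This call was lost with the trend on gene length removed, where the log2 ratio was -0.55 in place of -0.90. In the mutant the FSK ratio was 1.02 (0.722 to 1.43), and mutant FSK was 1.52-fold (1.09 to 2.12) above WT FSK.

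Prkacb, the beta catalytic subunit, was at 1.72 CP10K in WT CON, 1.44 in WT FSK, 1.16 in WT Ex-4, 0.789 in mutant CON, 1.22 in mutant FSK and 0.945 in mutant Ex-4 in beta cells. Each WT column lay above the mutant column of the same treatment. The mutant to WT ratio was 0.460 (0.381 to 0.552) in CON, 0.845 (0.725 to 0.984) in FSK and 0.817 (0.678 to 0.980) in Ex-4, so that it was past 1.5-fold only in the comparison that uses WT CON. The median log2 ratio of mutant to WT over all genes kept was -0.14 in CON, 0.05 in FSK and -0.18 in Ex-4. Of these genes, 6.88% in CON, 11.1% in FSK and 31.8% in Ex-4 had a lower ratio than Prkacb. Under Ex-4 its ratio was thus near the shift of all genes. FSK against CON was 0.838 (0.737 to 0.953) in WT and 1.54 (1.26 to 1.89) in the mutant. With the median log2 ratio of all genes set to 0, the WT log2 ratio was -0.08 in place of -0.26. Ex-4 against CON was 0.674 (0.587 to 0.774) in WT and 1.20 (0.960 to 1.5) in the mutant. In alpha cells Prkacb was between 0.781 and 1.15 CP10K, and all of its ratios had intervals that included 1.

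For the inhibitor Pkia, as for Prkar1b, WT CON stood above every other beta column. Summed beta cell markers in beta columns were also highest there, at 67.2 CP10K against 46.5 to 51.8 CP10K in the other 5, and their part in these results was not tested. Pkia was at 1.53 CP10K in WT CON, 1.15 in WT FSK, 0.933 in WT Ex-4, 0.966 in mutant CON, 1.16 in mutant FSK and 0.830 in mutant Ex-4 in beta cells. The interval of WT CON (1.4 to 1.68) met none of the others. Against WT CON, Pkia was lower in WT Ex-4, with a ratio of 0.608 (0.522 to 0.707), and in mutant CON, with 0.630 (0.528 to 0.748). The same comparisons in delta cells gave 0.516 (0.357 to 0.740) and 0.571 (0.411 to 0.790), from levels of 2.29 CP10K for WT CON, 1.18 for WT Ex-4 and 1.31 for mutant CON. In alpha cells, where Pkia was below the filter with 22 to 55 counts, they gave 0.5 (0.304 to 0.807) and 0.498 (0.331 to 0.748). In the mutant, Ex-4 against CON gave 0.859 (0.691 to 1.07) in beta and 0.928 (0.657 to 1.31) in delta cells. Pkib had a level of 0.289 CP10K in WT CON, 0.294 in WT FSK, 0.164 in WT Ex-4, 0.192 in mutant CON, 0.265 in mutant FSK and 0.131 in mutant Ex-4, on 25 to 91 counts per column. Its ratio to WT CON was 0.569 (0.393 to 0.817) in WT Ex-4 and 0.665 (0.440 to 0.988) in mutant CON, and WT FSK was 1.79-fold (1.25 to 2.59) above WT Ex-4.

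Rapgef4 gave the most counts of the members, 12415 over the 6 beta columns. Its level was 9.41 CP10K in WT CON, 10.5 in WT FSK, 6.05 in WT Ex-4, 5.70 in mutant CON, 10.3 in mutant FSK and 5.51 in mutant Ex-4. The columns fell into a high set of 3 and a low set of 3, as for Prkar2b. Summed alpha cell markers in the beta columns split the same way, at 7.34, 9.05 and 7.60 CP10K in WT CON, WT FSK and mutant FSK and at 4.64, 4.64 and 4.80 CP10K in the other 3, and their part in either result was not tested. FSK against CON was 1.12 (1.06 to 1.18) in WT and 1.81 (1.68 to 1.94) in the mutant, while mutant FSK against WT FSK was 0.979 (0.928 to 1.03). Ex-4 against CON was 0.643 (0.606 to 0.682) in WT and 0.967 (0.888 to 1.05) in the mutant. Mutant CON against WT CON was 0.606 (0.564 to 0.650), and mutant against WT under Ex-4 was 0.911 (0.843 to 0.983). Gene length moved with these ratios: with the length trend removed, the log2 ratio of mutant CON to WT CON was 0.01 in place of -0.72, that of WT Ex-4 to WT CON was -0.08 in place of -0.64, and that of mutant FSK to mutant CON was 0.15 in place of 0.85.

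Alpha cells had nearly the same Rapgef4 values as beta cells: 9.75 CP10K in WT CON, 9.24 in WT FSK, 6.16 in WT Ex-4, 5.76 in mutant CON, 8.86 in mutant FSK and 5.48 in mutant Ex-4. The alpha ratios were 0.948 (0.806 to 1.11) for FSK in WT, 1.54 (1.36 to 1.73) for FSK in the mutant, 0.631 (0.540 to 0.737) for Ex-4 in WT and 0.591 (0.516 to 0.677) for mutant CON against WT CON. The summed alpha cell markers moved alike in these columns, at 118, 139 and 113 CP10K in WT CON, WT FSK and mutant FSK and at 49.9, 48.6 and 47.1 CP10K in the other 3, and their part in the result was not tested. In delta cells Rapgef4 ran only from 4.22 to 6.10 CP10K, its FSK ratio was 0.855 (0.707 to 1.03) in WT and 1.04 (0.876 to 1.24) in the mutant, and no ratio reached 1.5-fold. In endothelial cells WT FSK was the low column, at 8.68 CP10K (6.52 to 11.3), against 11.8 to 16.7 CP10K in the other 5, and its interval met those of mutant FSK and mutant Ex-4. The 3 antisense genes at the Rapgef4 locus held 0 to 16 counts per beta column.

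Rapgef3 was at or near 0 in beta cells. It had 0 counts in WT CON, which allows up to 0.00996 CP10K, 2 in WT FSK, 2 in WT Ex-4, 8 in mutant CON, 2 in mutant FSK and 3 in mutant Ex-4, and no ratio is given from such counts. In delta cells it was at 0.607 CP10K in WT CON, 0.398 in WT FSK, 0.556 in WT Ex-4, 0.441 in mutant CON, 0.491 in mutant FSK and 0.579 in mutant Ex-4, with overlapping intervals. In endothelial cells it was highest, at 2.86, 1.93, 2.70, 3.01, 2.08 and 1.98 CP10K in the same order, again with overlapping intervals.

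**Figure D4:**
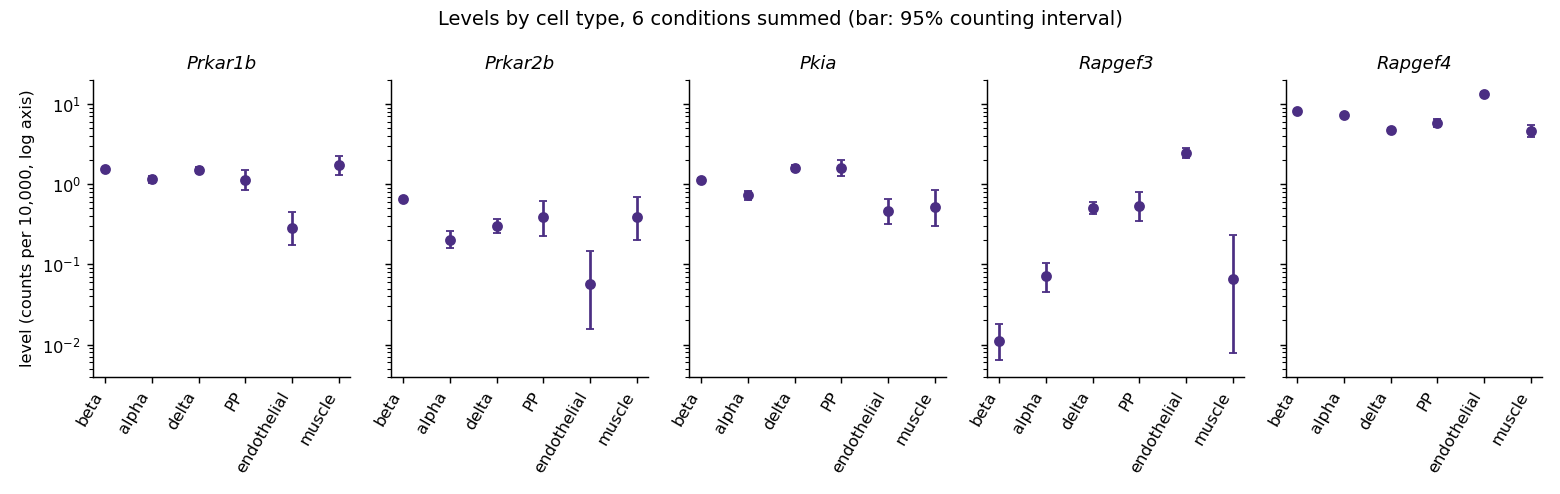
Level (CP10K, log axis) of 5 of the genes in 6 cell types, with the counts of the 6 conditions summed and 95% counting intervals. Rapgef3 spanned from 0.0112 CP10K in beta cells to 2.44 CP10K in endothelial cells, and Prkar2b from 0.0575 CP10K in endothelial cells to 0.654 CP10K in beta cells.

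Levels of several members differed between cell types, and the widest span was that of Rapgef3. With the conditions summed, Rapgef3 was at 2.44 CP10K (2.09 to 2.84) in endothelial cells, 0.536 (0.347 to 0.792) in PP cells, 0.508 (0.430 to 0.596) in delta cells, 0.0708 (0.0458 to 0.105) in alpha cells and 0.0112 (0.00650 to 0.0179) in beta cells. PP and delta cells did not differ beyond their intervals, and the other neighbours in this order did. The endothelial level was 219-fold (133 to 385) and the delta level 45.5-fold (27.5 to 80.2) that of beta cells, and both were higher in 6 of 6 conditions. Summed endothelial markers were at 0 to 0.317 CP10K in delta columns and at 49.1 to 97.9 CP10K in endothelial columns. Rapgef4 was at 13.3 CP10K (12.5 to 14.2) in endothelial, 8.15 (8.01 to 8.30) in beta, 7.18 (6.90 to 7.46) in alpha, 5.77 (5.10 to 6.50) in PP, 4.74 (4.50 to 4.99) in delta and 4.65 (3.92 to 5.48) in muscle cells. The last 2 did not differ beyond their intervals, and alpha cells were above beta cells in 3 of 6 conditions.

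The regulatory subunits and inhibitors were also unevenly spread. Prkar2b was at 0.654 CP10K (0.614 to 0.696) in beta cells and lower in 6 of 6 conditions in alpha cells, at 0.204 (0.160 to 0.257), and in delta cells, at 0.303 (0.243 to 0.372). In endothelial cells it was at 0.0575 (0.0157 to 0.147) on 4 counts in all, and the 0 counts of WT Ex-4 there allow up to 0.540 CP10K, so that condition does not show a level below that of beta cells. Prkar1b was at 1.72 CP10K (1.29 to 2.26) in muscle, 1.53 (1.47 to 1.59) in beta, 1.5 (1.36 to 1.64) in delta, 1.15 (1.04 to 1.27) in alpha, 1.14 (0.852 to 1.49) in PP and 0.287 (0.176 to 0.444) in endothelial cells. Of these, muscle, beta and delta cells did not differ beyond their intervals, and the PP interval overlapped these and that of alpha cells. However, the ratio of PP to beta cells was 0.743 (0.555 to 0.976), with PP cells above beta cells in 3 of 6 conditions. Endothelial cells lay below beta cells in 6 of 6 conditions. Pkia was highest in PP cells, at 1.61 CP10K (1.27 to 2.02), and delta cells, at 1.59 (1.45 to 1.75), which overlapped each other and lay above beta cells, at 1.12 (1.07 to 1.18), in 6 of 6 conditions. The PP columns held only 5 to 20 Pkia counts each, and in every condition their interval overlapped that of beta cells. Alpha cells, at 0.725 (0.639 to 0.820), lay below beta cells in 6 of 6. Pkib was higher in macrophages, at 0.765 CP10K (0.418 to 1.28) on 14 counts, than in beta cells, at 0.230 (0.206 to 0.255). The macrophage columns held 0 to 7 counts each, with 7 in WT FSK, which is too few to compare single conditions.

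Prkacb was at 1.26 CP10K (1.20 to 1.32) in beta, 1.00 (0.892 to 1.12) in delta and 0.864 (0.770 to 0.967) in alpha cells, and at 1.76 (1.32 to 2.29) in muscle cells, which were above beta cells in 6 of 6 conditions. The muscle columns held only 7 to 15 Prkacb counts each, and in every condition their interval overlapped that of beta cells. Prkaca was at 0.333 CP10K (0.305 to 0.363) in beta, 0.3 (0.246 to 0.363) in alpha and 0.239 (0.187 to 0.301) in delta cells. Prkar2a was at 0.511 CP10K (0.476 to 0.548) in beta, 0.533 (0.459 to 0.614) in alpha, 0.484 (0.409 to 0.570) in delta and 0.589 (0.423 to 0.799) in endothelial cells, and none of these differed beyond their intervals. Prkar1a, with FSK columns included, was at 1.87 CP10K (1.72 to 2.03) in delta, 1.81 (1.75 to 1.88) in beta and 1.08 (0.976 to 1.20) in alpha cells. Of the 540 values of the 10 genes in the 54 columns, 119 were 0, but only 2 of these were in beta, alpha or delta columns, both of Rapgef3.

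Between genes, levels can be compared only per length. Per 100 kb of gene span, Prkar1a was the highest of the members in beta cells (3.84 CP10K), followed by Rapgef4 (2.93), Prkacb (1.51), Prkaca (1.42) and Pkia (1.42), with Pkib (0.211) and Rapgef3 (0.0399) last. Per 10 kb of exon, Rapgef4 came first (7.24 CP10K), followed by Pkia (1.99) and Prkar1a (1.86), and Pkib and Rapgef3 were again last. In endothelial cells Rapgef3 led per span (8.74 CP10K), ahead of Rapgef4 (4.77), while per exon Rapgef4 (11.8 CP10K) led Rapgef3 (2.00).

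**Figure D5:**
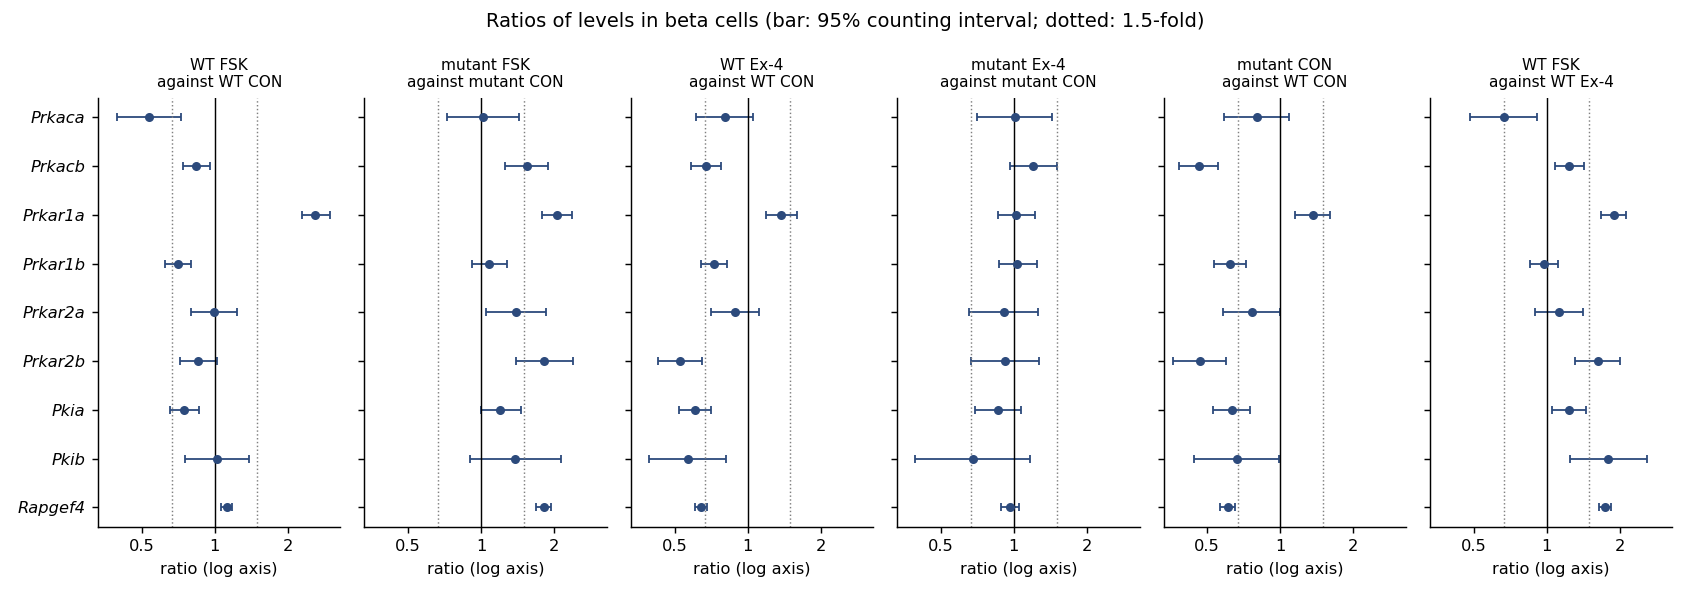
Ratio of CP10K in beta cells (horizontal log axis) for the 9 members that passed the filter, in 6 comparisons. Points are ratios, bars are 95% counting intervals, the solid line is 1 and dotted lines are 1.5-fold. Prkar1a was past 1.5-fold in WT FSK (2.60), mutant FSK (2.06) and WT FSK against WT Ex-4 (1.89), and no member was past it in mutant Ex-4.

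Counted over the 9 members kept in beta cells, WT FSK against WT CON gave 1 higher (Prkar1a) and 1 lower (Prkaca), where 7.52% of all 6555 genes kept were higher and 20.1% lower. The median log2 ratio was -0.22 for the members and -0.17 for all genes. Mutant FSK against mutant CON gave 4 higher (Prkacb, Prkar1a, Prkar2b and Rapgef4) and 0 lower, where 26.2% of genes were higher and 24.2% lower, with a median of 0.47 for the members and 0.04 for all genes. WT Ex-4 against WT CON gave 0 higher and 4 lower (Prkar2b, Pkia, Pkib and Rapgef4), where 19.5% were higher and 15.0% lower, with medians of -0.57 and 0.02. Mutant Ex-4 against mutant CON gave 0 in either direction, where 1.54% were higher and 1.92% lower, with medians of -0.05 and -0.04. Mutant CON against WT CON gave 0 higher and 6 lower (Prkacb, Prkar1b, Prkar2b, Pkia, Pkib and Rapgef4), where 18.2% were higher and 26.9% lower, with medians of -0.67 and -0.14. Of these 5 comparisons, 3 share the WT CON column and 3 share mutant CON, so their counts are not independent of each other.

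The comparisons that do not use WT CON follow. Mutant Ex-4 against WT Ex-4 gave 0 members higher and 0 lower, where 0.656% of genes were higher and 5.81% lower. Mutant FSK against WT FSK gave 1 higher (Prkaca) and 0 lower, where 8.34% were higher and 1.14% lower. WT FSK against WT Ex-4 gave 4 higher (Prkar1a, Prkar2b, Pkib and Rapgef4) and 0 lower, where 19.1% were higher and 33.6% lower. With the length trend removed, the only member past 1.5-fold after FSK was Prkar1a, in WT and in the mutant, and after Ex-4 in WT the members were Prkaca and Prkar2b, both lower. Mutant CON against WT CON then kept Prkacb and Prkar2b of the 6. With the median log2 ratio set to 0, mutant CON against WT CON gave 1 higher (Prkar1a) and 2 lower (Prkacb and Prkar2b). With column totals that left out mitochondrial and ribosomal RNA linked genes, it gave 3 lower (Prkacb, Prkar2b and Rapgef4), and the calls of Prkacb in mutant FSK and of Rapgef4 in WT Ex-4 were lost.

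In alpha cells 4 members were kept (Prkacb, Prkar1a, Prkar1b and Rapgef4) among 2322 genes. WT FSK gave 0 in either direction, where 11.5% of genes were higher and 9.60% lower. Mutant FSK gave Rapgef4 higher and 0 lower, where 22.7% were higher and 10.3% lower. WT Ex-4 gave 0 higher and Rapgef4 lower, where 18.5% were higher and 25.8% lower. Mutant Ex-4 gave 0 in either direction, where 0.560% were higher and 1.08% lower. Mutant CON against WT CON gave 0 higher and Rapgef4 lower, where 18.1% were higher and 31.4% lower. None of the Rapgef4 calls in alpha cells was kept with the length trend removed. All 3 were also lost when the median log2 ratio was set to 0, and mutant CON against WT CON then gave Prkar1a higher in place of Rapgef4 lower.

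In delta cells 4 members were kept (Prkar1a, Prkar1b, Pkia and Rapgef4) among 1947 genes. WT FSK gave Prkar1a higher and 0 lower, where 16.7% of genes were higher and 15.4% lower. Mutant FSK gave the same, where 31.5% were higher and 16.4% lower. WT Ex-4 gave Prkar1a higher, at 1.56-fold (1.03 to 2.41), and Pkia lower, where 15.4% were higher and 23.6% lower. Mutant Ex-4 gave 0 in either direction, where 1.28% were higher and 1.90% lower. Mutant CON against WT CON gave Prkar1a higher, at 1.51-fold (1.01 to 2.30), and Pkia lower, where 16.6% were higher and 33.6% lower. With the length trend removed, the Prkar1a calls in WT Ex-4 and mutant CON were both lost, and the Pkia calls were kept. With the median log2 ratio set to 0, both genes stayed called in WT Ex-4, and only Prkar1a did in mutant CON.

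Genes that work with these members were read from lists in beta cells. A-kinase anchoring proteins place PKA at its targets, and 16 of 26 listed were kept. WT FSK gave 1 higher, Akap6 (ratio 1.64, 1.45 to 1.85), and 2 lower, Akap8l (0.503, 0.434 to 0.582) and Akap7 (0.612, 0.484 to 0.772), with a median log2 ratio of -0.10 against -0.17 for all genes. Shares over all genes there were 7.52% higher and 20.1% lower. Mutant FSK gave 4 higher and 3 lower, where the shares over all genes were 26.2% and 24.2%. WT Ex-4 gave 3 higher and 2 lower, where they were 19.5% and 15.0%, so that neither count says anything particular of the list. Mutant Ex-4 gave 0 of either, where the shares were 1.54% and 1.92%. Mutant CON against WT CON gave 3 higher and 5 lower, where they were 18.2% and 26.9%. Akap6, an anchoring protein of the nuclear envelope, had 1.35 CP10K in WT CON, 2.21 with FSK and 0.808 with Ex-4 in WT, 0.743 in mutant CON and 2.19 in mutant FSK.

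Rap GTPases, their regulators and partners of EPAC2 numbered 19, of which 12 were kept. WT FSK gave 1 higher, Rap1b (2.44, 2.17 to 2.75), which is a Rap GTPase that EPAC can activate, and 1 lower, Rap1gap2 (0.492, 0.463 to 0.522), which switches Rap off. The median log2 ratio was 0.10 against -0.17 for all genes. Mutant FSK gave 3 higher, Rap1b (4.0, 3.35 to 4.81), Rap1a (2.92, 2.31 to 3.72) and Rapgef2 (1.92, 1.65 to 2.23), and 2 lower. WT FSK against WT Ex-4 gave the same 3 higher, with Rap1b at 3.21 (2.82 to 3.66), and 2 lower. Ex-4 gave 0 higher and 1 lower in WT and 0 of either in the mutant, and mutant CON against WT CON gave 1 higher and 3 lower. Over all genes, the shares higher and lower were 7.52% and 20.1% in WT FSK, and 26.2% and 24.2% in mutant FSK. They were 19.1% and 33.6% in WT FSK against WT Ex-4, and 19.5% and 15.0% in WT Ex-4. For mutant Ex-4 they were 1.54% and 1.92%, and for mutant CON against WT CON 18.2% and 26.9%. With 12 genes kept, these counts are not read as particular to the list.

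Of 9 other cAMP effectors and PKA relatives, 3 were kept. Hcn4, a channel gated by cyclic nucleotides, was lower in WT FSK (0.568, 0.391 to 0.817) and mutant FSK (0.387, 0.244 to 0.600). Pkig, another PKA inhibitor gene, was lower in WT Ex-4 (0.607, 0.481 to 0.764) and mutant CON (0.539, 0.405 to 0.711) against WT CON, and no gene of this list reached 1.5-fold between mutant Ex-4 and mutant CON. The share of all genes that was lower was 20.1% in WT FSK, 24.2% in mutant FSK, 15.0% in WT Ex-4 and 26.9% in mutant CON against WT CON. Between mutant Ex-4 and mutant CON, 1.54% were higher and 1.92% lower. With 3 genes kept, these calls are not read as particular to the list. As a check of the treatments, cAMP feedback genes were read, and 8 of 10 were kept. Over all genes, FSK gave 7.52% higher and 20.1% lower in WT, and 26.2% and 24.2% in the mutant. Of the 8 feedback genes, 5 were higher by at least 1.5-fold after FSK in WT and 7 in the mutant, with 0 lower. Among them Pde10a, a phosphodiesterase, had 107 CP10K with FSK, 30.9 without treatment and 26.5 with Ex-4 in WT. WT Ex-4 gave 1 higher and 3 lower of these genes, where 19.5% and 15.0% of all genes were. Mutant Ex-4 gave 0 of either, where 1.54% and 1.92% were. The list therefore rose after FSK but not after Ex-4, so it serves as a check of FSK only.

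Genes with the pattern most like a member were sought over the 18 beta, alpha and delta columns, among 1660 genes with enough counts in all 3 cell types. This was possible for Prkar1a, Prkar1b and Rapgef4. Pearson's r on log2(CP10K + 1) was 0.87 for Chgb, 0.86 for Cpeb4 and 0.84 for Inpp5f with Prkar1a. It was 0.90 for Bcas3, 0.86 for Mboat2 and 0.86 for Zdhhc2 with Prkar1b, and 0.97 for Ppm1l, 0.96 for Ext1 and 0.93 for Negr1 with Rapgef4. The 18 columns share libraries and treatments, so these values are descriptions. Ppm1l shows the likeness to Rapgef4, at 7.58 CP10K in WT CON, 8.0 in WT FSK, 4.86 in WT Ex-4, 3.83 in mutant CON, 7.27 in mutant FSK and 3.68 in mutant Ex-4 in beta cells.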

How the data were processed

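Nuclei of cultured islets were barcoded by the authors with Evercode WT v3, and each of the 8 sublibraries mixes all 6 conditions, so that they are not replicates. The authors aligned reads with split-pipe 1.4.0 to mm39, removed nuclei with extreme counts, gene numbers or mitochondrial content, and normalized and clustered them in Seurat 5.3.0. The annotation and the strand setting were not given in the sources used here. The deposited table holds natural log values, ln(1 + 10000 × count / column total), pooled by the authors over the nuclei of a condition and cell type. It was not given in the sources used here if counts were corrected before pooling. Undoing the log gave whole counts in 100% of values (tolerance 0.001, largest distance 6.39e-05).

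Samples carry no group label of their own, and conditions were read from column names. Ratios of CP10K were given exact conditional (Clopper-Pearson) 95% intervals, and none where either count was 3 or fewer. A count of 0 was read as at most 3 counts. Intervals of a ratio of ratios are approximate, on the log scale. The fold threshold was 1.5 and the mean count minimum 50. Counting intervals and the threshold were tried on simulated counts that held counting error only. This does not check the calls against the spread between preparations. Named genes were all 10 members, at most 4 genes per pathway list and comparison with the largest ratio past 1.5-fold, and the 3 genes most like a member. Values of 1 gene of the pathway lists are not reported here. The members, lists and rules were chosen with earlier results of these data known. Alternatives are listed in the closing section. Sequences came from RefSeq (GRCm38.p6), coordinates from GRCm39 (GENCODE M39). Work was done in Python 3.11.15 with scipy 1.17.1, statsmodels 0.14.6, numpy 2.4.6, matplotlib 3.10.9 and pandas 2.3.3.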

Additional observations from a re-analysis of the deposited data

Results flagged for a closer look

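Of 210 pairs of contrasts compared for the members, 1 had counting intervals on opposite sides of 1. Prkacb in beta cells had an FSK to CON ratio of 0.838 (0.737 to 0.953) in WT and of 1.54 (1.26 to 1.89) in the mutant. The columns behind these ratios were 1.72 and 1.44 CP10K in WT and 0.789 and 1.22 CP10K in the mutant. The WT value lay near the shift of all genes kept, whose median log2 ratio was -0.17 in WT and 0.04 in the mutant. With this median set to 0, the log2 ratio of Prkacb was -0.08 in place of -0.26 in WT. In the mutant it was 0.59 in place of 0.62. A lower Prkacb level after FSK in WT therefore depends on the scaling of the columns. The difference between the genotypes was not tested, since each value is a single pooled column.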

How the results depend on the processing

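Of 126 counts of members past 1.5-fold under an alternative, 60 stayed within 1.5 times the original count and 66 did not. Counts are given for beta, then alpha, then delta cells, each against its original in parentheses. On the log2(CP10K + 1) scale, which understates changes of low genes, beta counts were 1 in WT FSK (2), 2 in mutant FSK (4), 0 in WT Ex-4 (4) and 2 in mutant CON against WT CON (6). There the alpha count in mutant FSK was 0 (1), and delta counts were 0 in mutant FSK (1), 1 in WT Ex-4 (2) and 0 in mutant CON (2). With a 2-fold threshold, beta counts were 1, 1, 0 and 2 in the same 4 comparisons, alpha counts were 0 in mutant FSK, WT Ex-4 and mutant CON (1 each), and delta counts were 0 in mutant FSK (1), WT Ex-4 (2) and mutant CON (2). With the length trend removed, beta counts were 1, 1, 2 and 2, alpha counts were 0 in mutant FSK, WT Ex-4 and mutant CON, and delta counts were 1 in WT Ex-4 and 1 in mutant CON. The sign of 1 called log2 ratio was reversed there, Rapgef4 in mutant CON against WT CON (0.01 in place of -0.72).

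With a mean count of 20, alpha counts were 1 in WT FSK (0), 2 in mutant FSK, 2 in WT Ex-4 and 2 in mutant CON (1 each), and delta counts were 2 in WT FSK (1), 1 in mutant Ex-4 (0) and 4 in mutant CON (2). With a mean count of 200, beta counts were 1 for WT FSK (2) and 2 for WT Ex-4 (4), and delta counts were 0 in WT FSK (1), mutant FSK (1), WT Ex-4 (2) and mutant CON (2), since fewer members are kept. With no filter, and no fold where both counts were at or under the floor, the beta count in mutant Ex-4 was 1 (0), alpha counts were 2 in WT FSK, 4 in mutant FSK, 4 in WT Ex-4, 1 in mutant Ex-4 and 4 in mutant CON, and delta counts were 3 in WT FSK, 2 in mutant FSK, 4 in WT Ex-4, 2 in mutant Ex-4 and 5 in mutant CON. Column totals that left out mitochondrial and ribosomal RNA linked genes gave 3 in beta mutant CON (6) and 0 in alpha mutant FSK, alpha WT Ex-4 and delta mutant FSK (1 each). With the median log2 ratio set to 0, counts were 3 in beta mutant CON (1 higher, Prkar1a, and 2 lower), 0 in alpha mutant FSK, alpha WT Ex-4 and delta mutant FSK, and 1 in delta mutant CON. The alpha count in mutant CON stayed at 1 there, but with Prkar1a higher in place of Rapgef4 lower. With WT Ex-4 in place of WT CON, WT FSK counts were 4 in beta, 1 in alpha and 2 in delta cells. Comparing genotypes under Ex-4, which was chosen after seeing the data, gave 0 in beta, alpha and delta cells. The cause of these changes was not tested except where stated.

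The split of all genes into higher and lower calls also moved. In beta cells, the higher share of calls was 27.3% in WT FSK and 47.2% with the median set to 0. It was 40.4% in mutant CON against WT CON and 53.4% with the median set to 0, and 56.5% in WT Ex-4 and 67.3% after rescaling. In mutant FSK it was 52.0% and 41.7% after rescaling, and in mutant Ex-4 44.5% and 57.8% after rescaling. Of 180 log2 ratios of members in beta cells, 152 stayed within their counting interval, 27 left it and 1 reversed. No paired analysis was possible because there is 1 pooled column for each condition and the columns carry no replicate numbers. Counting error limits Pkib and Rapgef3 in endocrine cells and all members in macrophage, ductal and neuron columns. No spread between preparations can be had from these data.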
